A study of Saccharomyces cerevisiae with 6 samples.

Results

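Constant Rap1 sites between tandem genes are Rap1 ChIP-seq peaks of budding yeast that stayed listed after 0, 2 and 4 h of histone H4 shutoff and lie between 2 genes read in the same direction. They were selected on peak positions: a 0 h peak had to share at least 1 bp with a peak of the 2 h list and of the 4 h list. Its summit had to lie outside every coding span and more than 20 kb from both chromosome ends, with the nearest coding spans on the left and right on the same strand. Of 1212 peaks at 0 h, 360 met the rule, 183 between genes on the W strand and 177 between genes on the C strand. The gene whose coding start faces the gap is called the downstream gene, and each site is named by it. The other gene, whose coding end faces the gap, is called the upstream gene.

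Rap1 is a general regulatory factor of budding yeast. It binds the promoters of ribosomal protein and glycolysis genes, where it opens chromatin and recruits coactivators, and it coats telomeres, where it recruits silencing factors. Its sites in tandem promoters are of interest because such a gap holds the end of 1 gene and the start of the next, so a site between them faces a single coding start. A site between divergent genes faces a pair of starts.

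The peaks come from Rap1 antibody ChIP in the Saccharomyces cerevisiae strain UKY403, which makes histone H4 in galactose and stops making it in dextrose, so that nucleosomes run short as cells divide. Cells were grown in galactose, washed into dextrose and crosslinked with formaldehyde after 0, 2 or 4 h, with 2 biological replicates per time from separate time courses (6 samples). All 3 groups carry the same H4 shutoff, the 0 h group still has the H4 made in galactose, and the isogenic control strain UKY412 was not analysed here, so effects of H4 loss, of dextrose and of time cannot be told apart. The values are 1 peak list per time, with no value per replicate, so no test across samples was possible and every result is a description.

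After duplicate tags were dropped, 983197 tags remained at 0 h, 1483679 at 2 h and 2327099 at 4 h, and the lists held 1212, 2438 and 4073 peaks. Fold enrichment, summit height and -log10 q are the authors' values per peak and are read within a list. Height counts extended tags at the summit and reached 292 at most in every list, so the strongest sites are compressed. Intervals of shares are 95% exact binomial (Clopper-Pearson) intervals over sites, genes or gaps and cover counting error only.

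Persistence was used to select the sites and is given as a description. Of 456 tandem 0 h peaks beyond 20 kb of an end, 360 (78.9%) overlapped both later lists, against 83.1% of all 1212 peaks at 0 h. The other 96 tandem peaks had low 0 h fold enrichments, with 2.66 as the median and 6.79 as the highest, at a peak before RIM8, which encodes a protein of the pH response. Of these 96, 18 overlapped the 2 h list only, 21 the 4 h list only and 57 neither. The weakest overlaps inside the rule were at HSP31 (21 bp in the 2 h list, 28 bp in the 4 h list), MET10 (59 bp at 2 h) and PRB1 (65 bp at 4 h). Just outside it, peaks before BGL2, VPS3 and GDB1 missed a later list by 15, 20 and 37 bp, with 0 h fold enrichments of 2.49, 4.45 and 2.81. At the 20 kb limit, the nearest sites inside were before YDL241W, YOR387C and PCA1, at 20003, 20275 and 20498 bp from an end, with 0 h fold enrichments of 2.73, 15.6 and 8.28. The nearest outside were before DSF1, HXK1 and PHO89, at 18961, 14548 and 14155 bp, with 4.45, 10.15 and 15.4.

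Tandem gaps held constant sites in proportion to their share of gap bases, with fewer per base than divergent gaps and more than convergent ones. Tandem gaps made up 48.2% of the 3 kinds of gap and 51.1% of their bases, and they held 360 of 716 constant intergenic sites (50.3%, interval 46.6 to 54.0%). Divergent gaps made up 33.0% of the bases and held 326 sites (45.5%), and convergent gaps 15.9% of the bases and 30 sites (4.19%). Per 100 kb of gap this came to 23.6 tandem, 33.1 divergent and 6.31 convergent sites. A constant site was present in 339 of 2731 tandem gaps (12.4%), 305 of 1471 divergent gaps (20.7%) and 29 of 1462 convergent gaps (1.98%). Tandem gaps with a site were longer, with a median of 630 bp against 378 bp for those without. In 4 groups of tandem gaps by length, from shortest to longest, the share with a site was 4.51, 7.34, 11.6 and 26.2%.

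Ribosomal protein genes stood out among the downstream genes. Of 60 ribosomal protein genes that start at a tandem gap, 49 had a constant site (81.7%, interval 69.6 to 90.5%), against the background of 12.4% for all tandem gaps. The large subunit gave 31 of 38 genes and the small subunit 18 of 22. Ribosomal protein genes had longer tandem gaps (median 548 bp) than other genes (393 bp), but the difference was present at matched lengths. In gaps of 280 to 396 bp the counts were 9 of 12 ribosomal protein genes and 41 of 669 other genes, and in gaps of 397 to 604 bp 18 of 20 and 61 of 659. None of the 4 ribosomal protein genes with a gap under 280 bp had a site, namely RPL29, RPL4A, RPL9B and RPS26A. The remaining genes without a site were RPL15B, RPL31B, RPL4B, RPP1A, RPS22B, RPS28B and RPS8A. None of these 11 gaps held any 0 h summit. For RPS26A the short reading frame YGL188C-A lies between the gene and a site of 14.5 at 0 h, which the rule names by YGL188C-A. For comparison, 66 of 72 divergent gaps with a ribosomal protein gene held a constant site.

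**Figure D1:**
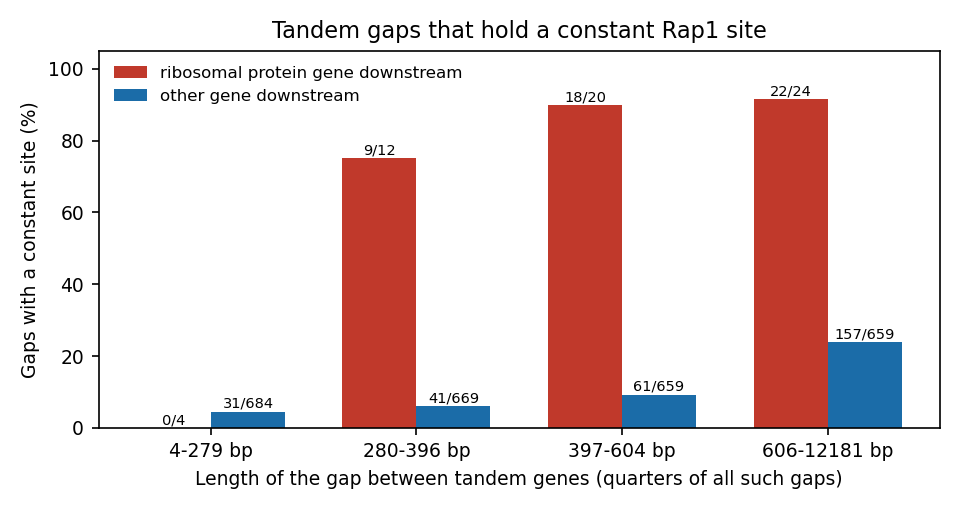
Share of tandem gaps (%, y axis) that hold a constant Rap1 site, by gap length in 4 groups of about equal size (bp, x axis), for gaps with a ribosomal protein gene downstream (red) and other genes (blue); numbers above bars are gaps with a site out of all gaps. Ribosomal protein genes are at 75% or more in every length group but the shortest, where 0 of 4 had a site, and other genes rise from 4.53 to 23.8%.

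The strongest of the 360 tandem sites at 0 h were before genes of several kinds. HOM6, encoding homoserine dehydrogenase of threonine and methionine synthesis, led with fold enrichments of 17.8, 14.5 and 9.95 in the 0, 2 and 4 h lists (chromosome X, 690456 to 690940, summit 190 bp before the coding start). Next was PIM1, encoding the mitochondrial Lon protease, with 17.1, 12.6 and 8.76 (chromosome II, 181250 to 181750). RPS1A, for a protein of the small ribosomal subunit, had 16.9, 13.8 and 9.39 in the gap after the silencing gene SIR3 (chromosome XII, 1018914 to 1019416). RAP1 itself had 16.8, 12.9 and 8.64, with its summit 128 bp before the coding start (chromosome XIV, 241302 to 241810). RPL35A (16.6) and RPS27A (16.6) followed. SKN1, involved in glucan synthesis, had 16.5 with a tRNA gene 108 bp from the summit. MRE11, encoding a nuclease of DNA break repair, had 16.5, ATG19, encoding a receptor of selective autophagy, 16.4, and UBI4, encoding polyubiquitin, 16.4. The first 6 of these were close to the height limit in all lists, between 270 and 292.

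At the other end were 3 weak sites before metabolic genes and a pair in the ribosomal RNA repeat. MET10, encoding a subunit of sulfite reductase, had 2.26 at 0 h, ARG3, encoding ornithine carbamoyltransferase, 2.17, and THI80, of thiamine pyrophosphate synthesis, 2.11. Between the reading frames YLR154C-H and YLR154C-G, sites of 1.96 and 1.71 lay in the ribosomal DNA with summit heights of 221 and 258, so their low enrichment came with a high local background.

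Within each list the tandem sites spanned nearly the whole range of values, and their medians were close to those of the divergent sites. At 0 h the tandem fold enrichment ran from 1.71 over a median of 7.94 to 17.8, and the divergent one from 1.35 over 8.23 to 17.9. At 2 h the medians were 7.0 tandem and 6.57 divergent, and at 4 h 5.54 and 5.41. All peaks of the lists had medians of 5.11, 3.51 and 3.09. The 96 tandem 0 h peaks that did not overlap both later lists had low values (median 2.66 at 0 h). The demand for overlap therefore itself raises the medians of the constant sites. Tandem sites above the median of their list numbered 234, 278 and 286 of 360, and of the top 100 peaks by -log10 q they made up 35, 31 and 30 at 0, 2 and 4 h. These counts are to be read against unlike bases. The sites were 360 of 1212 peaks at 0 h, and at most 360 of 2438 at 2 h and 360 of 4073 at 4 h. Peak lengths were close too, with medians of 411 bp tandem and 424 bp divergent at 0 h.

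**Figure D2:**
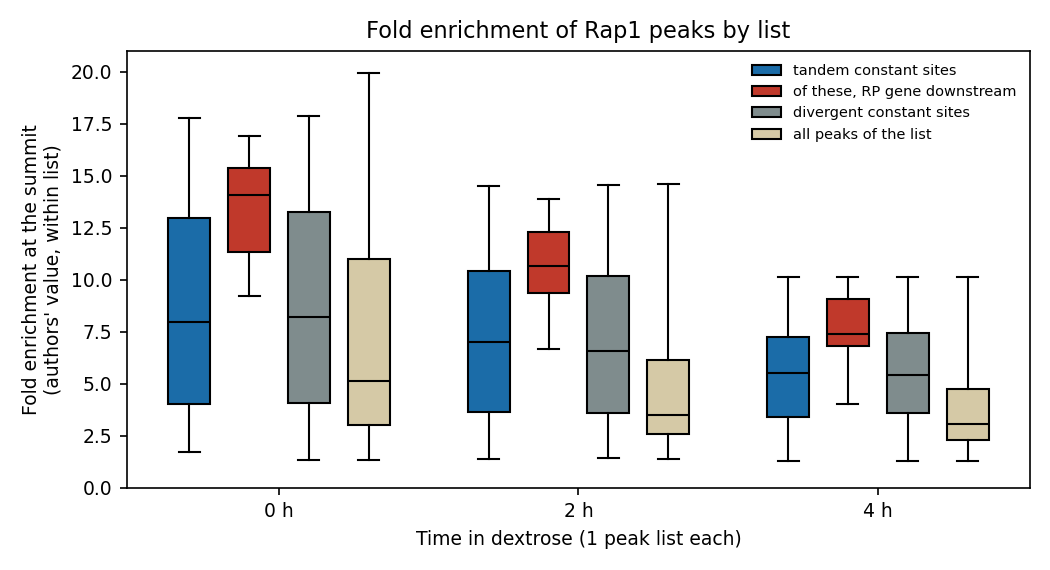
Fold enrichment at the summit (y axis, the authors' value) in the 0, 2 and 4 h lists (x axis) for the 360 tandem constant sites, the 49 of them with a ribosomal protein (RP) gene downstream, the 326 divergent constant sites and all peaks of each list. Boxes show the quartiles and median, whiskers the lowest and highest value, and the lists differ in depth and background, so boxes are read within a time; the tandem and divergent medians are close (7.94 and 8.23 at 0 h), and the ribosomal protein median is above both at each time (14.1 at 0 h), with ranges that overlap.

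At 0 h the 49 ribosomal protein sites filled the upper part of the range. Their fold enrichment at 0 h ran from 9.21 (RPS21A) over a median of 14.1 to 16.9 (RPS1A), and all 49 were above the median of the 360 sites. Large-subunit sites had a median of 14.0, led by RPL35A (16.6), RPL6A (16.2), RPL12B (15.8) and RPL5 (15.8), and small-subunit sites one of 14.3, led by RPS1A, RPS27A (16.6), RPS20 (15.7) and RPS7B (15.7). In the 4 h list the 49 sites ran from 4.02, again RPS21A, over 7.39 to 10.1 at RPS20 and RPL23A. There RPS21A and RPL8A (5.37) were below the median of the 360 sites (5.54). In the 2 h list RPS21A (6.67) was below that list's median of the 360 sites (7.0). Median summit heights were 281, 288 and 287, near the limit of 292 in each list. Their peaks were also longer, with a median of 517 bp against 411 bp for all 360 sites at 0 h.

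The other gene lists held few sites, so each count has a wide interval, to be read against the 12.4% of all tandem gaps. Only the intervals of the glycolysis list and of the hexose transporter and glucose sensor list lie above that share. The intervals of all other lists with a tandem gap include it, so those lists were not set apart from it. Glycolysis genes had a site at 6 of 10 tandem gaps (60%, interval 26.2 to 87.8%). These were PDC1, for pyruvate decarboxylase (13.6, 9.71 and 7.05 in the 0, 2 and 4 h lists), TDH3, for glyceraldehyde-3-phosphate dehydrogenase (13.0, 11.4 and 9.37), TPI1, for triosephosphate isomerase (11.2, 7.49 and 6.67), GPM1, for phosphoglycerate mutase (9.46, 9.47 and 6.26), FBA1, for aldolase (9.21, 5.14 and 4.35), and HXK2, for hexokinase (4.45, 3.03 and 2.35). Hexose transporter and glucose sensor genes had a site at 5 of 9 gaps (55.6%, interval 21.2 to 86.3%): HXT5 (12.8 at 0 h), HXT1 (8.0), HXT6 (6.31), HXT7 (4.10) and HXT13, with 2 sites (5.31 and 3.51). HXT6 and HXT7 are near-identical copies, so tags in them may be shared.

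Translation factor genes had a site at 4 of 19 gaps (21.1%, interval 6.05 to 45.6%, background 12.4%), at YEF3 (14.8) and TEF1 (13.1), which encode elongation factors, HEF3 (8.28), a close relative of YEF3, and TIF1 (3.89), which encodes the helicase eIF4A. Amino acid biosynthesis genes had one at 9 of 46 gaps (19.6%, interval 9.36 to 33.9%, background 12.4%), with HOM6 (17.8), SER3 (14.5), of serine synthesis, HIS4 (13.9), of histidine synthesis, and GLN1 (7.89), for glutamine synthetase, the highest. Chaperone genes had one at 4 of 17 gaps (23.5%, interval 6.81 to 49.9%, background 12.4%), namely HSP78 (11.04), SSB1 (7.18), HSP26 (5.93) and SSA3 (3.39). The list of Rap1 and its partners had RAP1 (16.8) and GCR1, the glycolytic activator that works with Rap1, with 2 sites (10.5 and 6.67), at 2 of 9 gaps (22.2%, interval 2.81 to 60.01%).

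The lists that remain had 2 sites at most, and the intervals of those with a tandem gap include the 12.4% of all tandem gaps. Genes with a mitochondrial ribosomal protein name had a site at 2 of 28 gaps (7.14%, interval 0.877 to 23.5%), MRPL49 (15.8) and MRP8 (9.29). This share was below that of the cytoplasmic ribosomal protein genes. The list was drawn by gene name, and whether MRP8 encodes a protein of the mitochondrial ribosome was not checked. Respiratory chain and TCA cycle genes had one at 1 of 28 gaps, the aconitase gene ACO1 (2.89), and ribosome biogenesis genes at 1 of 26, the nucleolin-like gene NSR1 (12.2). Proteasome genes had one at 1 of 11 (PRE1, 3.51), galactose genes at 1 of 5 (GAL3, 6.73), aminoacyl-tRNA synthetase genes at 0 of 5, and no histone gene started at a tandem gap counted here.

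Most sites lay within 500 bp before the downstream start, and more often nearer to the end of the upstream gene than to that start. The distance from the 0 h summit to the downstream coding start ran from 8 to 6072 bp with a median of 355 bp and quartiles of 221 and 599 bp. It was within 250 bp at 110 sites, within 500 bp at 245 and within 1000 bp at 327. The distance to the upstream coding end had a median of 250 bp. The summit was nearer to the upstream end at 223 sites (61.9%, interval 56.7 to 67.0%), nearer to the downstream start at 136 and equally far at 1. The share was close on both strands, at 62.8% for W and 61.0% for C. Coding spans hold no untranslated regions, so distances to transcript starts and ends are shorter on both sides by amounts not known here. At divergent sites the nearer of the 2 starts was at a median of 257 bp.

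Both distances add up to the gap length, so they rise with it by construction. In 4 groups of 90 sites by gap length, from shortest to longest, the median distance to the downstream start was 185, 318, 464 and 785 bp, and the median distance to the upstream end 124, 207, 348 and 930 bp. The upstream end was the nearer at 64, 67, 54 and 38 of 90 sites. The 180 sites with the higher 0 h enrichment had the upstream end nearer in 68.9% (interval 61.6 to 75.6%), the 180 lower ones in 55.0% (47.4 to 62.4%). These intervals overlap, and the higher sites lay in shorter gaps (median 600 bp against 829.5 bp), whose part in the difference was not tested. The shortest gap was that before YLR112W (67 bp), with a site of 11.7 whose summit lay 8 bp from the start, followed by those before UBA4 (151 bp) and MET30 (177 bp). The longest were those before TUS1, encoding an activator of Rho1 (7372 bp, with 2 sites), YLR257W (6386 bp) and YLR154C-G. The peaks themselves reached into the upstream coding span at 140 sites and into the downstream one at 70 at 0 h, with 192 sites clear of both.

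Ribosomal protein sites kept to a narrower band. Their distance to the coding start ran from 157 bp (RPL1A) over a median of 310 bp to 508 bp (RPL12A), and 47 of 49 were within 500 bp, against 198 of the 311 other sites. They were nearer to the upstream end in 75.5% (interval 61.1 to 86.7%) and the other sites in 59.8% (54.1 to 65.3%).

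**Figure D3:**
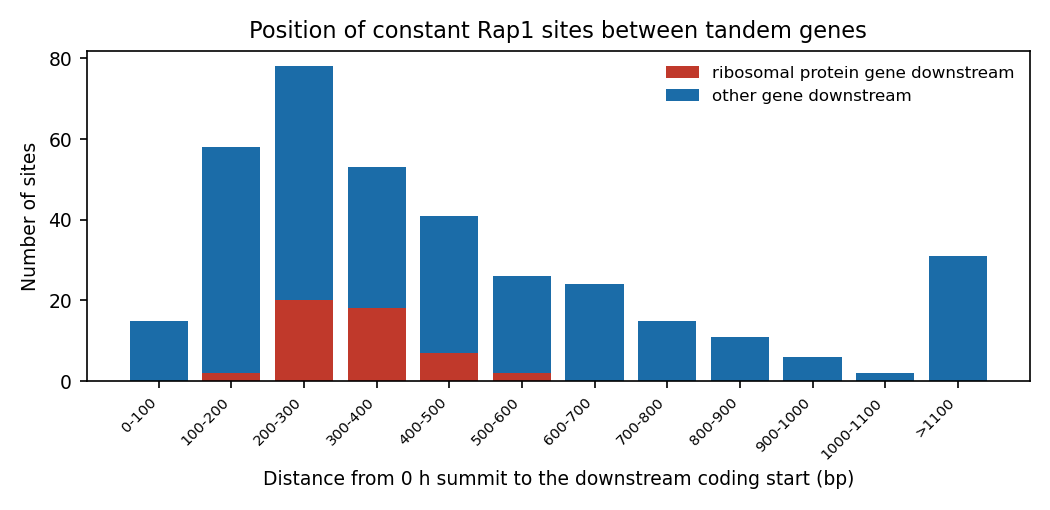
Number of constant tandem sites (y axis) by distance from the 0 h summit to the downstream coding start in 100 bp classes (x axis, bp), with sites before ribosomal protein genes in red and other sites in blue. The most sites, 78, lie at 200 to 300 bp, the ribosomal protein sites lie between 157 and 508 bp, and 31 sites lie beyond 1100 bp.

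Tandem gaps with a constant site mostly held a single one. The 360 sites fell in 339 gaps, 320 with 1 site, 17 with 2 and 2 with 3, and gaps with several sites were longer (median 1677 bp against 608 bp). GCR1 had its 2 sites 495 bp apart. DOT6, a repressor of ribosome biogenesis genes, had 2 sites 343 bp apart (12.6 and 8.11 at 0 h) that fell into a shared peak of 915 bp in the 2 h list and 1082 bp in the 4 h list. The G1 cyclin genes CLN3 and CLN1 each had a pair, 428 and 576 bp apart, the stronger at 10.1 for CLN3 and 6.402 for CLN1. ERG25, of sterol synthesis, had 3 weak sites (2.58 to 4.14), with the snoRNA gene SNR48 at 2 of them. These 4 genes were chosen after their values were seen.

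RNA genes were near few sites. An RNA gene lay within 200 bp of 19 summits (5.28%), against 6.75% of divergent sites and 6 of 30 convergent sites (20%). The share over all gaps was not computed. The 19 tandem sites had a median 0 h enrichment of 3.06. They included 6 sites near tRNA genes, among them those before SKN1 and PRE1, and 5 sites near snoRNA genes, among them the RPL7A site (11.1), near SNR39B. The site before PDX3 (7.87, 9.17 and 6.24 in the 0, 2 and 4 h lists) lay in TLC1, the gene of the telomerase RNA. The SER3 site lay 182 bp from SRG1, the noncoding RNA whose transcription represses SER3.

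Some sites were wide peaks in repeated or unusual stretches. A peak was over 1000 bp in at least 1 list at 11 sites. The 3 ribosomal DNA sites were joined in a shared peak of 3407 bp at 2 h and 3473 bp at 4 h, and the metallothionein copies CUP1-1 and CUP1-2 both overlapped a peak of 1307 bp at 4 h. These are multicopy stretches, so the value of a single copy cannot be read. The gap between TRP1 and GAL3 held a peak of 1584, 1591 and 1560 bp, and the gap between YCL001W-B and YCR001W one of 1652, 1737 and 1930 bp at 0, 2 and 4 h. By systematic name, the latter gap joins the left and right arms of chromosome III and so spans the centromere, as did the gap of the MET14 site on chromosome XI, whose peak was 335 bp at 0 h. TRP1 and centromere stretches are commonly carried on yeast plasmids. The sources used here do not say whether UKY403 holds such copies, and their part in these values was not tested. The medians and shares given above moved little without the 11 wide peaks, the fold enrichment median being 8.28 and the distance median 353 bp.

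Among the sites that met the rule, most summits stayed in place through the time course. The rule asks for overlap with a later peak, so a peak that moved away is not among the 360 and large shifts are limited by selection. The 2 h summit was within 50 bp of the 0 h summit at 319 of 360 sites (88.6%) and the 4 h summit at 312 (86.7%), with median shifts of 8 and 9 bp. At 4 h, 183 summits had moved toward the downstream start, 159 toward the upstream end and 18 not at all. Among the 180 sites with the higher 0 h enrichment the median shift at 4 h was 5 bp, with 4 over 100 bp, and among the 180 lower ones it was 18.5 bp, with 21 over 100 bp. The largest shifts were at CUP1-2 and in the ribosomal DNA, where a shared wide peak carries the later summit, so they do not show a moved site. Peak lengths showed no common trend, with medians of 411, 391.5 and 406 bp, 173 peaks longer and 185 shorter at 4 h than at 0 h.

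At a few sites the later summit lay inside a gene. This was so at 8 sites at 2 h and 15 at 4 h (4.17%, interval 2.35 to 6.78%). The highest of these at 4 h was ZEO1, with fold enrichments of 12.4, 10.04 and 8.26 and its 4 h summit in the upstream gene SHR5, at -261 bp from the 0 h summit (negative toward the upstream gene). HSP31, encoding a stress-inducible chaperone of the DJ-1 family, had 2.81, 7.44 and 7.81, where the later values belong to a peak inside HSP31, with its 4 h summit 317 bp forward, that overlapped the edge of the 0 h peak by 28 bp. A second 4 h peak, of 2.30 and a height of 67, lay closer, with its summit at -108 bp in the gap, so the later values of HSP31 are not those of the 0 h site. MET10 had 2.26, 3.77 and 5.01, with its 4 h summit 291 bp forward, inside MET10. At FBA1 and GAL3 the 4 h summit lay at -264 and -607 bp, in the upstream genes MPE1 and TRP1.

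The order of the sites by fold enrichment was largely the same in the 3 lists. Across the 360 sites, Spearman's rho of the fold enrichments was 0.93 between 0 and 2 h, 0.95 between 2 and 4 h and 0.86 between 0 and 4 h. The points share the local background and mappability of each site, and the rho is a description. Of the 50 highest sites at 0 h, 31 were among the 50 highest at 4 h. The rank among the 360 differed by at least 100 places between 0 and 4 h at 29 sites.

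PRE1, encoding a subunit of the proteasome core, rose the most places. Its fold enrichment was 3.51 in the 0 h list (rank 299 of 360), 10.6 in the 2 h list and 8.99 in the 4 h list (rank 25), with summit heights of 44, 219 and 268. The summit stayed within 7 bp, in a gap of 1822 bp, 556 bp before the coding start and 109 bp from a tRNA gene. The farther of the HXT13 sites had 3.51, 8.38 and 6.99 (heights 44, 171 and 255) at a fixed summit, while the nearer one had 5.31, 4.30 and 3.77. DSE4, encoding a glucanase of daughter cell separation, had 3.57, 4.43 and 6.96, the iron transporter gene SMF3 3.75, 5.82 and 7.14, and FRE7, of the ferric reductase family, 4.76, 7.97 and 7.22. YPS1, encoding a cell surface protease, had 4.29, 6.61 and 6.70. Apart from HSP31, MET10 and UBA4, the 10 sites that rose the most places kept their summit between genes.

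The sites that fell the most places ran from AQY1, at rank 18 in the 0 h list, to GFA1, of chitin precursor synthesis, at rank 247. A fall of 100 places or more is open only to sites ranked high enough at 0 h. YKL068W-A had 7.34, 3.72 and 2.56 in the 0, 2 and 4 h lists, WTM1, encoding a transcriptional modulator, 6.87, 3.29 and 2.42, and SSB1, encoding a ribosome-associated Hsp70, 7.18, 3.72 and 2.56. KSH1, of the early secretory pathway, had 13.0, 7.29 and 4.94, with heights of 211, 173 and 181 although the later lists held more kept tags. Heights at YKL068W-A, WTM1 and SSB1 were also lower in both later lists than at 0 h. FLO10, a flocculin gene, had 15.9, 11.1 and 6.53, and the aquaporin gene AQY1 16.1, 10.4 and 6.69. Their heights rose, from 218 over 232 to 249 at FLO10 and from 245 over 261 to 274 at AQY1. GFA1 had 4.61, 3.08 and 2.04, and MMO1 4.99, 3.42 and 2.21. The later MMO1 values belong to peaks with summits at -452 bp at 2 h and, inside MMO1, at 485 bp at 4 h. Peaks closer to the 0 h summit of MMO1 had 2.27 at 2 h (16 bp) and 1.89 at 4 h (-7 bp). The genes named for their change in rank were chosen after their values were seen, and with 1 list per time a change in rank has no replicate check.

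**Figure D4:**
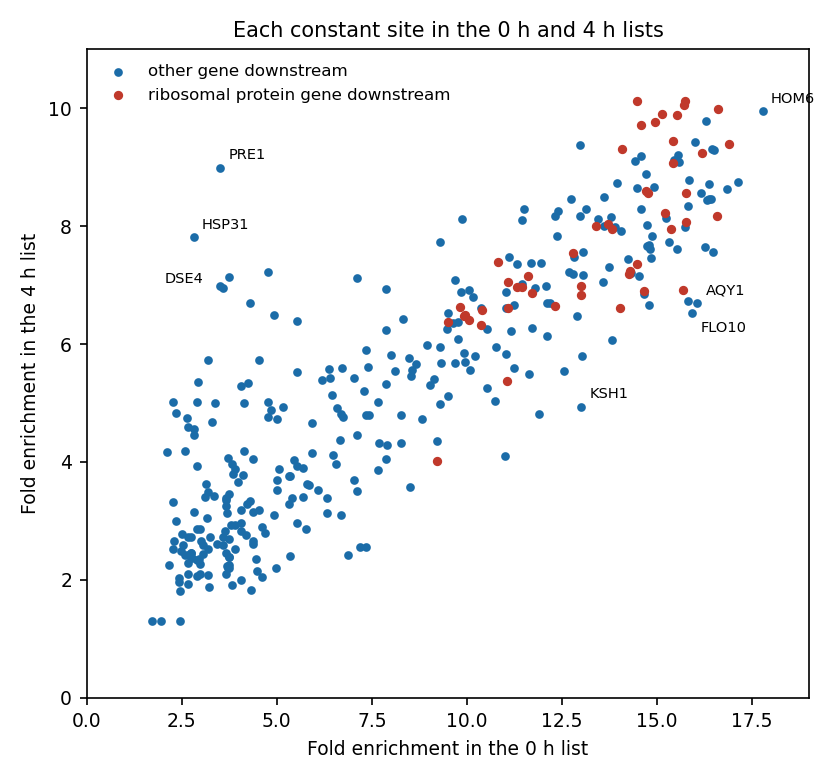
Fold enrichment of each of the 360 sites in the 0 h list (x axis) and the 4 h list (y axis), both the authors' values, with sites before ribosomal protein genes in red. The points follow a common band (rho 0.86), PRE1, HSP31 and DSE4 lie above it, and KSH1, FLO10 and AQY1 lie toward its lower edge; the axes differ in scale because the lists differ in depth and background.

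At 4 h the shares of genes next to the sites that gained new Rap1 peaks inside their coding spans were near the background of all genes. At 2 h the share of downstream genes other than ribosomal protein genes was above that background. A new summit is that of a later peak with no base in common with a 0 h peak, which the rule for the sites did not use. At 2 h, 72 of 339 downstream genes had a new coding summit (21.2%, interval 17.0 to 26.0%), against the background of 17.5% of all 6002 genes and 15.5% (14.1 to 17.1%) of 2307 genes at tandem gaps with no 0 h summit. At 4 h it was 112 of 339 (33.0%, interval 28.1 to 38.3%), against 34.2% of all genes and 31.3% (29.4 to 33.2%). Upstream genes of the sites had 63 (18.6%) and 108 (31.9%) of 339. Per 100 kb of coding span, downstream genes had 17.4 new summits at 2 h and 32.6 at 4 h, and all genes 13.5 and 30.5. Genes at tandem gaps with no 0 h summit had 11.5 and 26.4. Of the ribosomal protein genes, 4 of 49 had a new coding summit at 2 h (8.16%, interval 2.27 to 19.6%) and 13 at 4 h (26.5%, 14.9 to 41.1%). Their coding spans were shorter (median 831 bp against 1200 bp for all genes). Of the 290 other downstream genes, 68 had one at 2 h (23.4%, interval 18.7 to 28.8%) and 99 at 4 h (34.1%, 28.7 to 39.9%). The coding spans of these 290 genes had a median of 1267.5 bp. PRB1, encoding vacuolar protease B, had the most at 4 h, with 5. Next, with 3 each, were the fatty acid synthase gene FAS1, GCR1, YLR035C-A, YAT1, ADE3, SSA3 and ACO1.

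The new summits after the coding start were not spread evenly. From 250 to 500 bp after the start, where all new summits at gaps with a site lay inside the downstream gene, the 339 gaps with a site had 22 new summits at 2 h (6.49 per 100 gaps) and 39 at 4 h (11.5), against 2.90 and 7.24 per 100 gaps with no 0 h summit. From 500 to 750 bp the values were 4.42 and 7.96 per 100 gaps with a site at 2 and 4 h, against 2.34 and 5.77. From 1500 to 1750 bp they were 1.18 and 6.19, against 2.47 and 5.16. From 1750 to 2000 bp they were 2.65 and 5.31, against 2.86 and 6.63. In the 500 bp before the start new summits were fewer per gap at gaps with a site, 2 in all at 2 h and 4 at 4 h. New peaks by definition avoid the 0 h peaks there, and tandem gaps with a site were also longer than those without. The part of either in the difference was not tested. The 22 genes at 2 h included 20 of the 39 at 4 h. They were led at 2 h by UBA4 (6.16), MIG2, encoding a glucose repressor (6.04), ASC1, encoding a ribosome-associated protein (5.34), RPL36A (4.81) and HXT5 (4.46). At 4 h YNL208W (6.38), UBA4 (6.11) and RPL36A (5.65) led. Ribosomal protein genes were 2 of the 22 genes at 2 h (9.09%) and 8 of the 39 at 4 h (20.5%), against 49 of all 339 downstream genes (14.5%). The window of 250 to 500 bp and the others given here were chosen after their values were seen.

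**Figure D5:**
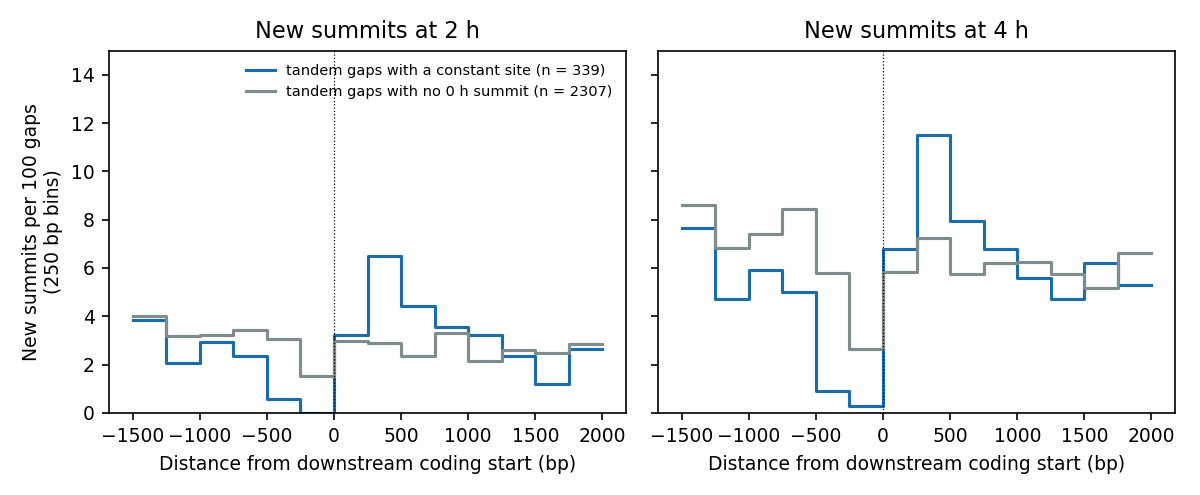
New Rap1 summits per 100 gaps (y axis) in 250 bp bins by distance from the downstream coding start (x axis, bp, positive values after the start, which run past the end of shorter genes) at 2 h (left) and 4 h (right), for 339 tandem gaps with a constant site (blue) and 2307 with no 0 h summit (grey). The blue line is highest at 250 to 500 bp, with 6.49 at 2 h and 11.5 at 4 h, and is lowest just before the start. New peaks by definition overlap no 0 h peak, and the part of this in the low values was not tested.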

How the data were processed

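Rap1 ChIP-seq peak lists, 1 per time point, were read as deposited. Peaks were called with MACS2 2.0.10.20130712 on sacCer3, with no control library, tags extended by 147 bp, a regional background over 10000 bp, a q cutoff of 0.05 and 1 tag kept per position, per the file headers. Bowtie and SAMtools are also named, without settings, per the submitters' processing notes. The sources used here do not say whether the 1 alignment file per time pools both replicates. The deposited height is an unscaled signal of extended tags, the deposited fold enrichment is the ratio of height to local background, and the deposited -log10 q is the caller's. With no control library, uneven fragmentation or mappability is not corrected. Tags kept made up 40.4% of the total at 0 h, 30.6% at 2 h and 37.8% at 4 h, and the fold scale and the weakest peak that can be called differ between lists.

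Neighbours came from the RefSeq R64 gene table (6002 protein-coding spans, strand from the systematic name), the same assembly as sacCer3. Chromosome ends were the last peak base per chromosome. Of several overlapping later peaks, that with the highest -log10 q was used. Dubious reading frames were not removed. Python 3.11.15, NumPy 2.4.6, pandas 2.3.3 and SciPy 1.17.1 were used, and the functions were tested on simulated data. The members, gene lists and alternatives were chosen with earlier results of these data known. Named genes followed a rule (highest 10 and lowest 5 sites at 0 h, up to 4 or all members per list, largest shifts, extreme gaps, limits), and others are marked in the text. The planned motif search was not run, because no sequence was used here.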

Additional observations from a re-analysis of the deposited data

How the results depend on the processing

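Of 57 values recomputed under other settings, 56 stayed within 1.5 times the count or inside the interval of the share or median. These were overlap of at least 50% of the shorter peak, -log10 q of at least 5, limits of 10 and 40 kb from chromosome ends, neighbours with a standard name, later summits, later summits outside coding spans, the nearest later summit, start windows and, chosen after seeing the data, no peaks over 1000 bp. The number of sites ran from 333 to 369 and the tandem share from 49.0 to 50.5%. The exception was the count of ribosomal protein sites within 250 bp of the start, 12 in place of 49, since most lie farther upstream. With standard-name neighbours 52 ribosomal protein sites were found, 7 of them before genes not in the main count, RPS26A among them. The RPS26A site (732 bp before the start) and the RPL3 site (757 bp) lay outside the range of 157 to 508 bp of the main count. At 0 h the RPL3 site had 3.75, below the lowest value of 9.21 in the main count. The narrow ranges of these sites therefore depend on which neighbours are used. No paired analysis was possible because each time has 1 list with no replicate values, and no replicate could be left out. The motif alternatives were not run. The effect of the lists' unequal depth on weak peaks was not tested.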
